A study of Mus musculus with 30 samples.

Results

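The liver libraries of a small RNA sequencing study of Ftsj1 were examined across every named feature of the liver table. That table lists 2194 named features, of the 10970 feature rows in the 5 organ tables of the series, and 877 of them had a mean above 0. The liver was sampled from 6 male mice aged 4 months, 3 labelled Ftsj1_DF (mice 1647, 1654 and 1656) and 3 labelled WT (mice 1646, 1653 and 1655), giving 6 of the 30 libraries of the series. All mice were untreated and fed freely, mice 1653 to 1656 were brothers, and mice 1646 and 1647 were brothers, so both sibships contributed to both genotypes. Whole liver was pulverised, so hepatocytes, blood, vessel and other liver cells were sequenced together. The library of WT mouse 1653 belonged to sequencing batch 2 and the other 5 to batch 1. Batch 2 holds no other liver library, so no value within it could be had. The labels state neither the allele nor the strain background.

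The enzyme encoded by Ftsj1 methylates ribose in the anticodon loop of certain tRNAs. MicroRNAs are short RNAs that guide Argonaute proteins to messenger RNAs, and target choice rests mainly on the seed, the bases near the 5' end that microRNAs of a family share. In the liver, miR-122 dominates the hepatocyte profile and supports lipid metabolism, and the miR-192 and miR-194 genes are characteristic of liver, gut and kidney. The contrast asks how liver microRNA levels differ between the genotypes. The Ftsj1 transcript, an mRNA, is outside what was counted, and no check of genotype was therefore possible.

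Sequences are given first for the members on which the results turn, from RefSeq (GRCm38.p6), which held a mature sequence for 635 of the 724 detected microRNA features. Each is written 5′ to 3′ with the seed, bases 2 to 8, in capitals. The table counts precursors and does not separate the arms of a hairpin, so the arm shown is the one named. The abundant liver microRNAs show the families that fill the profile, in which miR-192 and miR-215 share a seed, as do the let-7 members.
miR-21a-5p: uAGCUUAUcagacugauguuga
miR-30a-5p: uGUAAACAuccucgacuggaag
miR-148a-3p: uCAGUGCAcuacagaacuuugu
miR-192-5p: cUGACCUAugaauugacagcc
miR-215-5p: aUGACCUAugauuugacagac
miR-194-5p: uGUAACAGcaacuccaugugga
let-7g-5p: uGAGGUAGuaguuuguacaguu
let-7b-5p: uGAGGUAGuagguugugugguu
miR-26a-5p: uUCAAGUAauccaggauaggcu
The next set holds members described in the genotype contrast, among them the called Mir294 and Mir1958, the miR-125 members and 2 pancreas microRNAs read mainly in 1 library. The miR-294, miR-291a and miR-295 3p arms carry the same seed, and miR-125a and miR-125b differ outside theirs.
miR-294-3p: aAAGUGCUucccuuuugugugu
miR-291a-3p: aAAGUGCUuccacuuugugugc
miR-295-3p: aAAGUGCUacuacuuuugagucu
miR-1958: uAGGAAAGuggaagcaguaagu
miR-3474: cCCUGGGAggagacguggauuc
miR-125b-5p: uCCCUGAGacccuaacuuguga
miR-125a-5p: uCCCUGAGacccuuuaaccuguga
miR-149-5p: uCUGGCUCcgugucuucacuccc
miR-592-5p: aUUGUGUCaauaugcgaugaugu
miR-216a-5p: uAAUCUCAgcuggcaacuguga
miR-217-5p: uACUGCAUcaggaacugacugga

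Nothing in the authors' deposited table names the genotype used as numerator. The 3 libraries of the numerator are called the positive side here and the other 3 the negative side. A positive log2 fold change means a higher level on the positive side, except for some features with very few reads, described below. Whole reads per library could be recovered from the deposited means and fold changes for 784 of the 877 features, all those with a mean under 4085.64 among them, and those 784 hold 0.73% of the summed mean. Values per library are reads divided by the size factor, the library's relative depth, and libraries are numbered within a side by falling depth. The size factors were 2.155, 1.535 and 1.452 on the negative side and 0.729, 0.601 and 0.4999 on the positive side. The deepest positive-side library was thus shallower than every negative-side library, and depth and genotype cannot be told apart for features near the limit of detection. Floors given for 0 reads cover counting error only.

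Before any contrast, 2 liver libraries stood apart in microRNAs of other tissues. The 4 detected pancreas microRNAs summed to 47930 normalized reads in positive-side library 3 and to between 114.6 and 958.5 in the other 5. The 39 brain-enriched features, whose share in brain was at least 50 times that in the other organs, summed to 4274 in negative-side library 2, against 5928 and 15670 in negative-side libraries 1 and 3 and 10360 to 13560 on the positive side. Of those 39 features, 28 had their lowest value in negative-side library 2. These libraries also had the lowest correlations with the other 4 and with each other, on log2 values across 300 features whose mean was 10 or more. The r with any other library was 0.54 to 0.78 for negative-side library 2 and 0.54 to 0.75 for positive-side library 3, and such values share depth and normalization. For features and lists with recovered reads, values without these libraries are given where they change a direction or a call. The libraries could not be assigned to mice, genotypes or batches, so no fit takes account of the sibships.

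**Figure D1:**
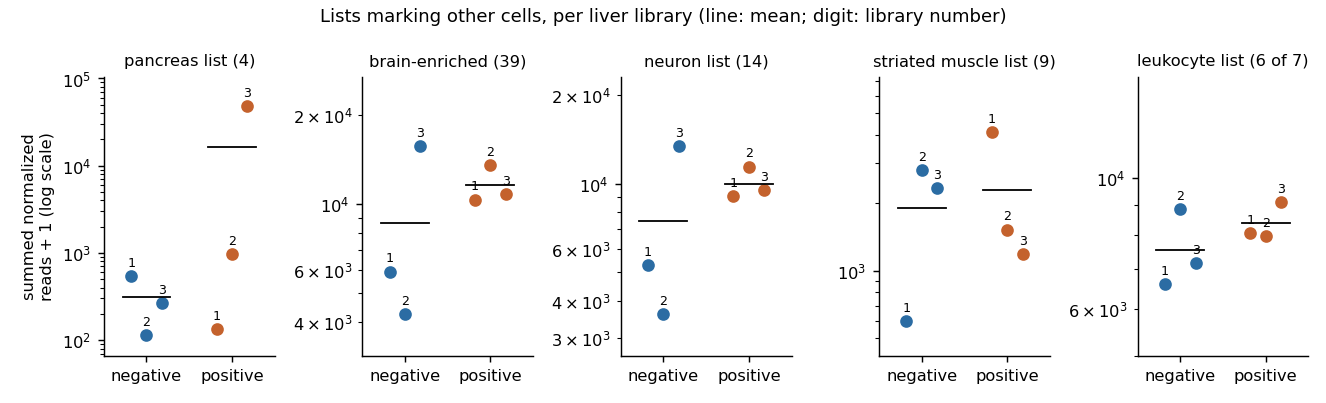
Summed normalized reads plus 1 (log axis) of 5 marker lists in the 6 liver libraries, by side of the fold change, with points for libraries numbered by falling depth and a line at the side's mean; numbers in brackets are the features summed. Positive-side library 3 stands at 47930 in the pancreas list and negative-side library 2 is lowest in the brain-enriched and neuron lists. The brain-enriched and neuron lists share members.

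The defining liver marker was high in liver and low elsewhere. Mir122, the hepatocyte microRNA, held 26.2% of the summed liver mean in the authors' deposited table and between 0.0207% and 0.0588% in the other 4 organs. Mir192 held 4.22% in liver and 1.28% in kidney, against at most 0.0487% in brain, heart and spleen. Mir802, a regulator of hepatic glucose metabolism, held 0.0756% in liver but 0.0938% in spleen, so it did not single out liver here.

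The liver profile was steep. The deposited means summed to 18941390 normalized counts, and 3 features reached 50% of that total while 24 reached 90%. After Mir122 came Mir21a, a microRNA of many proliferating and stromal cells, with 19.5%, then Mir30a with 6.36%, the smooth muscle microRNA Mir143 with 5.62% and Mir148a, an abundant hepatocyte microRNA, with 4.401%. The 20 most abundant features held 87.6% and the 70 features with a mean of at least 10000 held 98.5%. Features with a microRNA symbol, 724 in number, made up 99.1%, and the 152 provisional Gm features 0.28%. By list, the liver and gut microRNAs held 33.8%, the fibroblast and stellate list 19.6% (nearly all of it Mir21a), the miR-30 family 9.36%, the vascular list 7.49%, the let-7 and miR-98 family 7.03%, the miR-148 and miR-152 family 4.60% and the miR-26 family 4.25%. The defining stellate cell markers Mir199a-1, Mir199a-2, Mir199b and Mir214 were low, with deposited means from 910.2 to 7069. Of the red cell markers, Mir144 had a deposited mean of 16878 while Mir451a was listed at 0, as were Mir24-1, Mir30e and Mirlet7e. The shares of the miR-30 and let-7 families thus hold nothing from Mir30e or Mirlet7e, and the cause of these zeros was not tested.

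**Figure D2:**
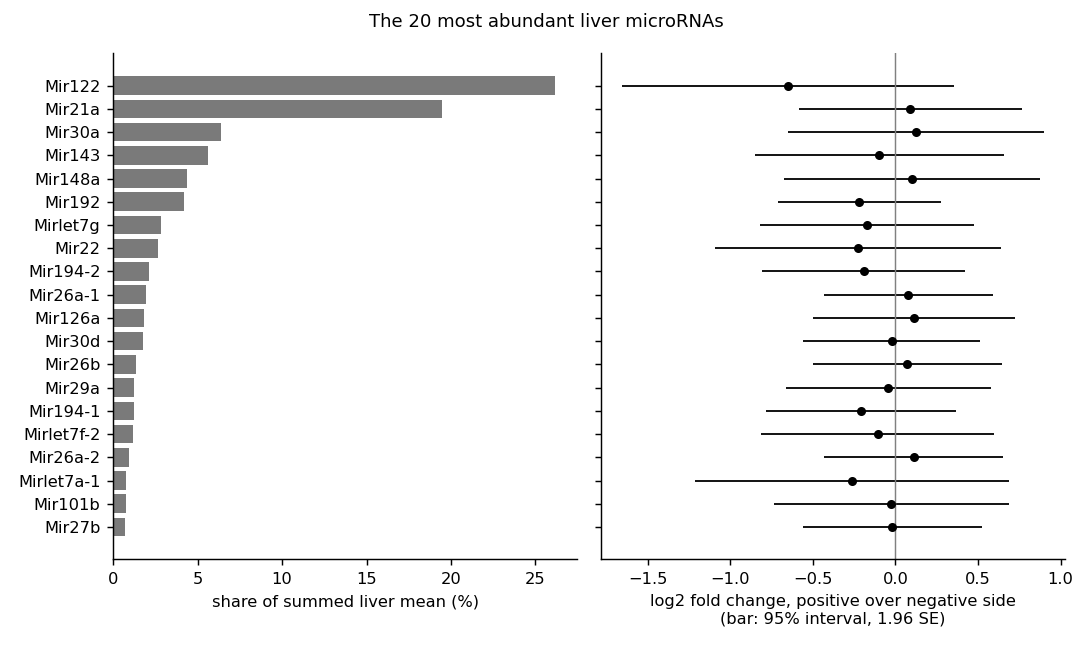
Left, share of the summed liver mean (%) of the 20 most abundant features; right, their deposited log2 fold change, positive over negative side, with bars for the 95% interval. Mir122 has the largest share, 26.2%, and all 20 intervals include 0.

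In the genotype contrast, 2 of the 872 liver features with a p-value were called at the 0.05 adjusted threshold of the authors' deposited table, 1 of each sign. That is 0.229% of the features tested, and 0.115% for the positive sign alone. At an unadjusted p of 0.05 the deposited table held 34 features, 3.9% of those tested, 15 positive and 19 negative. Both called features were rare, with means of 11.7 and 16.1. No feature with a mean above 100 was called, and among the 70 features with a mean of at least 10000, which hold 98.5% of the profile, the unadjusted p was under 0.05 for 2, Mir802 and Mir125b-1. Of those 70, 64 had a deposited log2 fold change within 0.5 of zero, and for 46 the whole 95% interval lay within 1 of zero. Their standard errors ran from 0.24 to 0.68 with a median of 0.36. For a typical abundant microRNA, an estimate within about 0.70 of zero on the log2 scale, the median half-width, had an interval including 0 even without adjustment. Larger changes could also go uncalled after adjustment. Mir125b-1, at -1.17, had an adjusted p of 0.991 in the deposited table.

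The balance of signs varied with abundance. Of the 70 features with a mean of at least 10000, 24 were positive and 46 negative, and the median deposited log2 fold change was -0.10. Among the 68 features between 1000 and 10000, 32 were positive and the median was -0.03. The 101 features between 100 and 1000 had 58 positive members and a median of 0.09, and the 154 between 10 and 100 had 86 positive and a median of 0.22. Below that the spread widened, with quartiles of -3.31 and 1.78 for the 257 features between 1 and 10, whose median was -0.46. The sign of that median rested on single libraries, since it was 0.01 without negative-side library 1, -0.10 without library 2 and 0.18 without library 3 of that side. The 227 features with a mean under 1 had 144 positive members and a median of 0.52, which was -0.12 without negative-side library 1. Features with 1 read in a negative-side library and 0 elsewhere, such as Gm54545 and Mir7062, also had a deposited log2 fold change of 0.52. The positive sign of such features does not mean a higher level on the positive side, and the class median gives no direction. Over all 877 features, these included, 459 were positive and the median was 0.07. Among the 393 features with a mean of at least 10, 200 were positive and the median was 0.0074. Median standard errors fell from 3.45 in the class between 1 and 10 to 0.51 in the class between 100 and 1000 and 0.36 in the highest class.

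**Figure D3:**
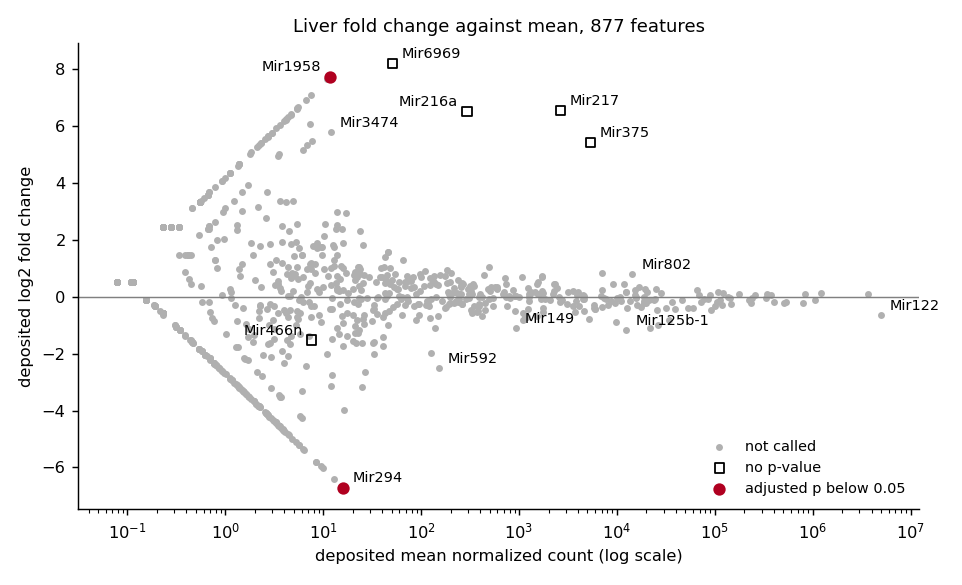
Deposited log2 fold change (positive over negative side) against the deposited mean normalized count (log axis) for 877 liver features; red points are the called features and open squares have no p-value. The 2 called features lie at means of 11.7 and 16.1, and the 3 squares at means above 100 are pancreas microRNAs.

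Mir294, from the miR-290 cluster known from embryonic stem cells, was read only on the negative side. Its reads were 62, 69 and 33 in negative-side libraries 1 to 3 and 0 in all 3 positive-side libraries. The normalized values were 28.8, 44.9 and 22.7 on the negative side, so the sides did not overlap. With a floor of 3 reads over the positive side, a normalized level of 1.64, the negative-side level of 31.9 was at least 19.45-fold higher. In the authors' deposited table the adjusted p was 0.0418 (log2 fold change -6.72, SE 1.68).

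Mir1958, a microRNA of little described function, showed the opposite pattern. It had 6, 6 and 26 reads in positive-side libraries 1 to 3 and 0 reads in the 3 negative-side libraries. The normalized values were 8.23, 9.98 and 52.0, and the sides did not overlap although the negative side was sequenced more deeply. Against a floor of 3 reads over the negative side, a normalized level of 0.583, the positive-side level of 20.8 was at least 35.6-fold higher, with 68.4% of the reads in 1 library. The authors' deposited table gives a log2 fold change of 7.74 (SE 1.98) and an adjusted p of 0.0418. Refitted without any 1 of the 6 libraries, both features kept their sign, with unadjusted p between 0.000106 and 0.000825 for Mir294 and between 0.000139 and 0.00319 for Mir1958, and neither passed the adjusted threshold in any of these 6 refits. For a single feature, an exact permutation test of 3 against 3 libraries cannot give a two-sided p under 0.1.

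The relatives of Mir294 were also rare. Mir291a, which has the same seed, had normalized values of 62.6, 98.99 and 28.2 on the negative side and 17.8, 3.33 and 36.0 on the positive side. Those ranges overlapped through negative-side library 3 and positive-side library 3. Mir292 of the same cluster had 40.4, 30.6 and 18.6 normalized reads against 4.12, 13.3 and 20.004, again with overlap. Mir295 had reads only in negative-side libraries 2 and 3 (22 and 2), and Mir293 had 13 reads in negative-side library 1 and 11 in positive-side library 3. Of the 14 members of the miR-290 and miR-302 list in the table, 6 were detected, 5 of them negative. The 1 called was Mir294 itself, beside 2 called of 872 tested over all features (0.229%). The list summed to 138.3, 188.9 and 71.6 on the negative side and to 21.9, 16.6 and 78.0 on the positive side, overlapping, and no member of the miR-302 cluster was detected.

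The other 8 features with the smallest p-values were mostly rare too and did not pass the adjusted threshold. Mir3474 had 0, 0 and 2 reads on the negative side and 9, 23 and 10 on the positive side, with no overlap of the normalized values (at most 1.38 against at least 12.3). Its deposited log2 fold change was 5.79 (SE 1.71) with an adjusted p of 0.204. Mir7083 had 7, 75 and 36 reads on the negative side, Mir7226 had 61, 22 and 20, and Mir8101 had 18, 55 and 10, and all 3 had 0 reads on the positive side. Mir3572 had 8 and 16 reads in positive-side libraries 2 and 3 and none elsewhere, and the 33 reads of Mir1668 all came from positive-side library 3. Mir6988 had normalized values of 130.4, 396.0 and 70.9 on the negative side and 80.9, 23.3 and 48.0 on the positive side, which overlap. Without negative-side library 2 the refitted log2 fold change of Mir6988 was -0.99 with an unadjusted p of 0.250, against -1.97 and 0.0103 with all libraries.

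Mir149, a microRNA described in fat and inflammatory signalling, was the most abundant of those 10. Its normalized values were 1039, 1924 and 824 on the negative side and 628, 704 and 438 on the positive side. The sides did not overlap, and the highest value came from negative-side library 2. The authors' deposited log2 fold change was -1.10 (SE 0.44) with an unadjusted p of 0.0120 and an adjusted p of 0.991. Without negative-side library 2 the refitted log2 fold change was -0.66 with an unadjusted p of 0.177.

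**Figure D4:**
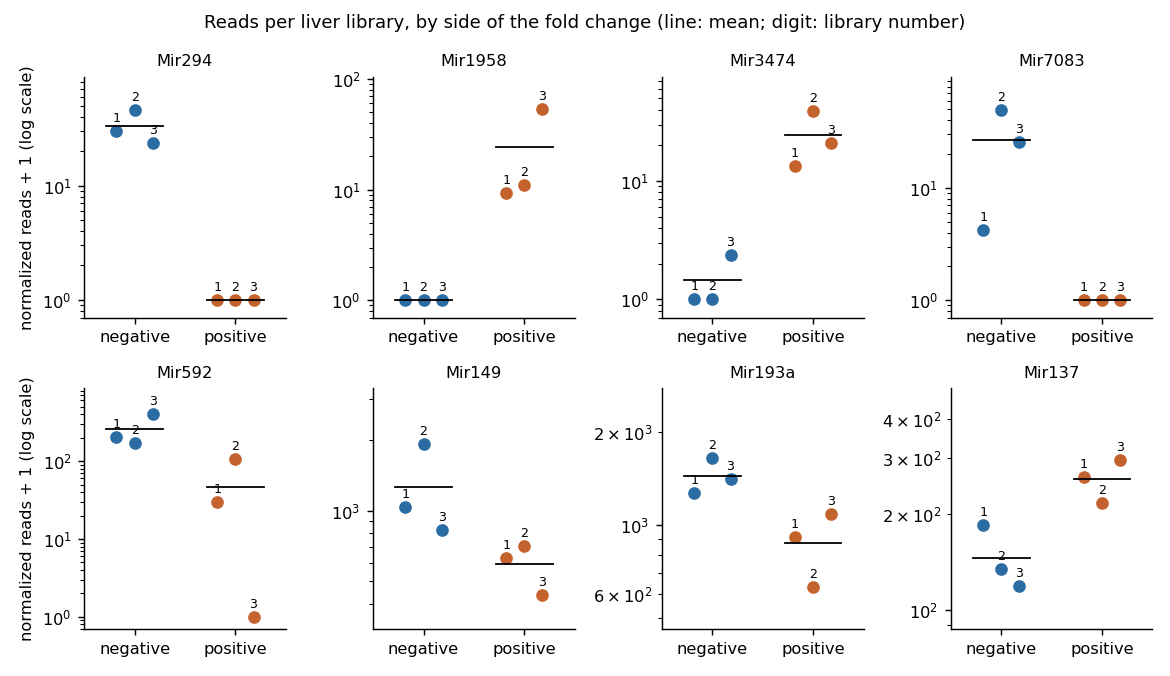
Normalized reads plus 1 (log axis) of 8 liver microRNAs in the 6 libraries, by side of the fold change; points are libraries numbered by falling depth and lines are side means. Mir294 and Mir7083 lie at 0 reads on the positive side and Mir1958 on the negative side. Only features whose sides do not overlap are drawn, so the separation in the 8 panels is no separate result.

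Reads on 1 side alone were common among rare features. With at least 10 reads in all, 81 features had reads only on the negative side and 19 only on the positive side, where summed size factors were 5.14 and 1.83. Of the 81, 36 had all their reads in 1 library and 10 had reads in all 3, and of the 19, 13 were in 1 library and only Mir1958 was in all 3. The side with more such features was the deeper one, and the part of depth in these counts was not tested.

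Among the 300 features with recovered reads and a mean of at least 10, the positive side lay wholly above the negative side for 12 (4.0%) and wholly below it for 17 (5.67%). In an exact permutation test of 3 against 3 libraries, such a separation in either direction has a two-sided p of 0.1. Separation alone therefore does not mark a feature as changed, and these shares were not tested against that rate. Mir137, a microRNA of neurons, was the first of the positive ones with a mean over 100, at 185, 134 and 118 on the negative side and 262, 216 and 296 on the positive side. Mir132, an activity-regulated microRNA of neurons that also acts in liver inflammation, was the other, at 491, 438 and 732 against 892, 800 and 910. Both were chosen for naming after their values were seen, as were Mir193a, Mir339 and Mir365-1. The non-overlapping features with a mean of at least 1000 were those 3, all lower on the positive side. Mir193a, described in fatty acid and amino acid metabolism, had 1268, 1645 and 1411 on the negative side and 915, 629 and 1084 on the positive side. The authors' deposited table gives Mir193a a log2 fold change of -0.72 (SE 0.34, unadjusted p = 0.0370, adjusted p = 0.991). Mir365-1 had 4385, 3479 and 5209 against 3154, 2474 and 3475, so its closest libraries were nearly equal. Mir592, which had the largest negative fold change above a mean of 100, had 205, 167 and 395 against 28.8, 106 and 0, with a deposited log2 fold change of -2.50 (SE 1.03). Outside the pancreas microRNAs, the largest positive fold change above that mean was 1.04 for Mir7036b, which had 5.86 normalized reads in negative-side library 2 and 292 to 864 in the other 5.

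No hepatocyte microRNA was called. Mir122 had side means of 6055335 and 3855055 normalized counts, derived from the deposited mean and fold change, and a deposited log2 fold change of -0.65 (SE 0.51, unadjusted p = 0.203). The 95% interval ran from -1.65 to 0.35. Mir192 was at -0.22 (SE 0.25), Mir194-2 at -0.19 (SE 0.31) and Mir194-1 at -0.21 (SE 0.29) in the deposited table, all intervals including 0. Of 2 other hepatocyte markers, Mir148a was at 0.10 (SE 0.40) and Mir101b at -0.03 (SE 0.36). Among the abundant members of the liver and gut list, Mir802 was the exception in sign, with derived side means of 10447 and 18181. Its log2 fold change was 0.80 (SE 0.40) with an unadjusted p of 0.0449 (adjusted p = 0.991) in the deposited table. Its reads per library were not recovered, so its level in positive-side library 3, the library high in pancreas microRNAs, was not examined. Mir215, with the seed of miR-192, had 254, 369 and 236 normalized reads on the negative side and 359, 338 and 490 on the positive side, which overlap. In whole tissue, fewer cells of a type and less RNA per cell cannot be told apart.

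The families were described by their counts beside the 2 calls in the whole table, and none of the abundant ones held a called member. All 6 members of the miR-125 and miR-99/100 families were negative, with a median deposited log2 fold change of -0.68, against 0.07 over all features and -0.10 in their abundance class. The miR-125 members, regulators of haematopoiesis and inflammatory signalling, had the most negative values. Mir125b-1 was at -1.17 (SE 0.59), with derived side means of 17257 and 7658, Mir125b-2 at -1.08 (SE 0.55) and Mir125a at -0.98 (SE 0.68), each with an adjusted p of 0.991 in the deposited table. Mir125b-1 and Mir125b-2 produce the same miR-125b-5p, so their reads may be shared and they are not independent. Their partners Mir100 and Mir99b were close to zero, at -0.13 and -0.03, and Mir99a was at -0.38 (SE 0.28).

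Of the 10 detected let-7 and miR-98 members, which restrain growth genes in differentiated cells, 9 were negative and the median deposited log2 fold change was -0.22. Mirlet7b was the lowest at -0.82 (SE 0.61) and Mirlet7i the only positive one at 0.06 (SE 0.30). Mirlet7g, the most abundant, was at -0.17 (SE 0.33). No let-7 member had an unadjusted p under 0.05. For comparison with these lists, 46 of the 70 features with a mean of at least 10000 were negative (median -0.10). Between 1000 and 10000, 36 of 68 were negative (median -0.03). Of the list of other metabolic microRNAs, 9 of 10 were negative with a median of -0.47, and 2 had an unadjusted p under 0.05. Those were Mir193a and Mir455, a microRNA described in brown fat, whose deposited log2 fold change was -0.87 (SE 0.43, adjusted p = 0.991). Mir574 of this list had 2823 normalized reads in negative-side library 2 and 643 to 895 in the other 5. Without that library, 4 of the 6 metabolic members with recovered reads were negative, against 5 of 6 with it.

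In the other direction, all 5 members of the epithelial miR-200 family, which marks bile duct cells in liver, were positive, with a median deposited log2 fold change of 0.46 and none with an unadjusted p under 0.05. Single libraries stood out in the recovered members. Mir200c had 2447 normalized reads in positive-side library 3, the library high in pancreas microRNAs, and 731 to 1005 in the other 5. Mir141 had 93.1 in negative-side library 2 and 395 to 750 in the others. Without positive-side library 3 the median of the 3 recovered miR-200 members was 0.05, and 2 of the 3 were positive. The miR-26 family (3 of 3 positive, median 0.08), the miR-7 family (4 of 4, median 0.23) and the miR-181 family (5 of 6, median 0.23) also had mostly positive members, each with no member under an unadjusted p of 0.05. Without negative-side library 2, the recovered miR-181 members went from 4 of 5 positive with a median of 0.23 to 3 of 5 with a median of 0.06. The recovered miR-7 members went from 2 of 2 positive to 1 of 2.

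**Figure D5:**
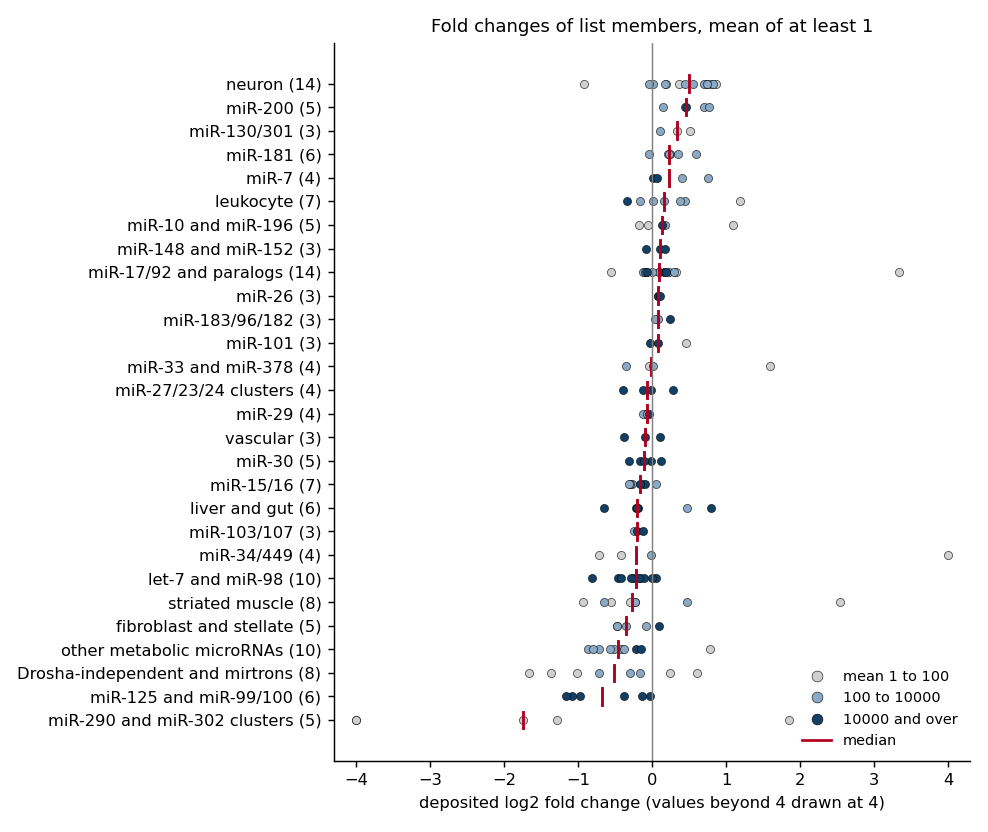
Deposited log2 fold change (positive over negative side) of members with a mean of at least 1 in 28 lists of at least 3 such members, shaded by mean, with a red line at the median and the number of members in brackets; values beyond 4 are drawn at 4 and the pancreas list, whose 4 members lie between 5.42 and 6.55, is left out. The abundant members lie near 0, and the miR-125 and miR-99/100 members are all negative.

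Other abundant families had medians between -0.17 and 0.10. The median was -0.10 among features with a mean of at least 10000, of which 46 of 70 were negative, and 0.07 over all features. The miR-30 family, with 1 of 5 detected members positive, had a median deposited log2 fold change of -0.11. The miR-29 family, which represses collagen genes, was 0 of 4 positive with a median of -0.08, and the miR-148 and miR-152 family was 2 of 3 positive with a median of 0.10. The miR-15/16 family had 1 of 7 positive and a median of -0.17, and the miR-17/92 cluster and its paralogs had 8 of 14 positive and a median of 0.09. Without negative-side library 2 the direction turned in the 11 miR-17/92 members with recovered reads, from 6 positive with a median of 0.09 to 3 positive with a median of -0.16. The vascular microRNAs Mir143, Mir126a and Mir145a were at -0.10, 0.11 and -0.38. Of the 7 detected leukocyte microRNAs 5 were positive with a median of 0.16, and Mir223, a microRNA of granulocytes and Kupffer cells, had 2019 to 3312 normalized reads on the negative side and 2278 to 2827 on the positive side.

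Precursors that lie together in the genome had more similar fold changes than arbitrary pairs, as a description of pairs that can share reads and transcripts. Genes within 10 kb of each other in RefSeq formed 58 clusters with at least 2 detected members. Of 57 pairs of cluster neighbours with means of at least 100, 42 (73.7%) had the same sign of the deposited fold change and the median absolute difference was 0.21. Over all pairs of the 239 features at that level, 49.9% had the same sign and the median difference was 0.38. The 2 sets of pairs were not matched on abundance, with which the signs and spread of fold changes also varied. The Mir192 and Mir194-2 pair held 6.35% of the profile, at -0.22 and -0.19, and the Mir143 and Mir145a pair held 5.69%. The widest gaps were in Mir27b and Mir3074-1 (-0.02 and -1.09) and in Mir99b and Mir125a (-0.03 and -0.98). Precursors with an identical mature arm and means of at least 1000 formed 16 groups, and in all 16 the members had the same sign. Mir194-1 and Mir194-2 differed by 0.02 and Mir26a-1 and Mir26a-2 by 0.03, and reads of such copies may be shared between them.

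Among low clusters, the 31 detected members of the imprinted Dlk1-Dio3 cluster around Mir379 had 22 positive members and a median deposited log2 fold change of 0.32, with none called. Their summed normalized reads were 3793, 3004 and 8350 on the negative side and 5461, 7548 and 6567 on the positive side. The lowest value was in negative-side library 2. Members such as Mir543 and Mir382 are also among the brain-enriched features, so that low value is no separate observation. The cluster around Mir871 with Mir465, Mir471 and Mir743 members, chosen for naming after its values were seen, had 12 of 15 detected members negative and none called. It summed to 139, 312 and 218 on the negative side and to 63.1, 64.9 and 40.01 on the positive side, without overlap, at a mean level where depth differs between the sides. The 21 detected of 71 members of the Sfmbt2 repeat cluster were evenly divided, 10 positive and 11 negative.

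A statistic without a p-value stood beside 5 features in the authors' deposited table, and 4 of them peaked in positive-side library 3. Mir375, a microRNA of pancreatic islets and neuroendocrine cells, had 387, 115 and 233 normalized reads on the negative side and 103, 729 and 30584 on the positive side. Mir217, of pancreatic acinar cells, had 146, 0 and 23.4 against 26.1, 186 and 15627, and its cluster neighbour Mir216a had 12.1, 0 and 6.89 against 2.74, 43.3 and 1698. Mir6969 had 0.928, 0 and 0 against 1.37, 1.66 and 300. Their deposited log2 fold changes were 5.42, 6.55, 6.52 and 8.20, and without positive-side library 3 the refitted values were 0.76, 0.91, 1.86 and 2.14, with unadjusted p of 0.701, 0.758, 0.481 and 0.372. The sides overlapped for Mir375, Mir217 and Mir216a. Mir466n, the fifth, had 73 reads in negative-side library 1, 6 in positive-side library 3 and none elsewhere.

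The neuronal list leaned positive, 12 of 14 members with a median deposited log2 fold change of 0.50, and 1 member, Mir137, had an unadjusted p under 0.05. Its summed normalized reads were 5283, 3607 and 13440 on the negative side and 9073, 11420 and 9494 on the positive side, so the highest and the lowest libraries were both on the negative side. Mir9-2, a microRNA of neural cells, had 744, 48.2 and 3054 against 1844, 2691 and 1896, and Mir124a-3, of neurons, had 81.7, 0 and 315 against 193, 256 and 214. Both are also among the brain-enriched features, so the low value of negative-side library 2 in the 2 lists is not independent. Without negative-side library 2, 9 of the 14 neuronal members were positive and the median was 0.15. The list's part of the profile was 0.046%. Of the 9 detected striated muscle microRNAs 7 were negative, with a summed level from 597 to 2791 on the negative side and from 1190 to 4115 on the positive side, overlapping. Their median log2 fold change was -0.31 with all libraries. Without negative-side library 2, 5 of the 9 muscle members were negative with a median of -0.06, and without positive-side library 3 also 5, with a median of -0.03.

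Heart and kidney, the other organs with 1 WT library of batch 2, gave the same contrast in the same mice. A refit of each of the 3 tables reproduced its fold changes with the positive side as the reference level, but no table states that the numerator is the same genotype in each organ, and the differences assume that it is. Among 780 features, no liver fold change differed from the heart one at an adjusted threshold of 0.05 (0.0%; z of the difference of deposited values, Benjamini-Hochberg), and 19 had an unadjusted p under 0.05. The smallest was that of Mir375, at 5.42 in liver and -0.23 in heart. From kidney, 1 of 747 features (0.134%) differed, Mir3474, at 5.79 (SE 1.71) in liver and -5.90 (SE 2.28) in kidney, with an adjusted p of 0.0299. The unadjusted p was under 0.05 for 13 kidney comparisons. Its mean was 12 in liver and 5.19 in kidney. Mir375 (-0.47 in kidney), Mir7226 (-5.95 in liver, 0.83 in kidney), Mir215 (0.46 in liver, -1.88 in kidney) and Mir7083 (-0.06 in kidney) followed, none past the adjusted threshold. This z treats the organs as independent, although the same mice gave them.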

How the data were processed

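Small RNA was sequenced from 6 liver libraries, 3 per genotype, with a NEXTflex small RNA kit, per the labels' protocols. The authors obtained counts on GRCm39 using featureCounts from Subread 2.0.3, and DESeq2 gave the comparisons, according to the submitters' processing notes. The aligner is not given in the sources used here, and neither are the annotation and the handling of reads that match several precursors. The authors deposited 1 table per organ. The deposited mean is a signal made by the authors, the mean over libraries of counts divided by size factors. Fold changes and standard errors were deposited as log2 values, per the file headers. The authors' Wald statistic was treated as a score. The authors' p-value and Benjamini-Hochberg adjusted p-value come from that statistic. The 1 row without a name was left out (2.35e-06% of the total). Per-sample columns left unused numbered 0.

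A deposited mean is the sum over 6 libraries of whole reads, each times what 1 read of that library is worth. Those 6 values were taken from the smallest means and accounted for all 228 means under 1. They were then refined by least squares on features of rising mean. Reads were accepted where they gave the mean and, in a refit of a 2-group negative binomial model with no batch term, the fold change and standard error. All 5 tables were reproduced to 1.1e-14 in log2 fold change (40 features per organ) when the positive side was taken as the reference level, and deviated by 2.1e-06 to 4.3e-06 (median) otherwise. The table does not name that level. Side means of unrecovered features were derived from mean and fold change, which differed from the counted negative-side mean by at most 0.235% over 146 features. The design had allowed for counts per library, which the tables do not hold, so the authors' own test is the main result. Leave-one-out refits held each feature's dispersion at the value its deposited standard error implies. limma 3.58.1 was run on log2 values with a pseudocount of 0.5. Steps were tested on simulated data.

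Named features are those called, the 10 with the smallest p, the 20 most abundant, those without a p, the 5 of each sign with the largest fold change above a mean of 100, the 4 most abundant of each of 31 lists, the 5 nearest to differing from heart and from kidney, and the markers. The members and lists were chosen with earlier results of these data known. Alternatives were other adjustment sets, thresholds, denominators and left-out libraries. With 3 libraries per side, precision is limited by their spread and, for rare features, by their reads.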

Additional observations from a re-analysis of the deposited data

Results flagged for a closer look

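Mir3474 is singled out because its fold change differed between liver and kidney by a test of the difference itself. The difference, liver minus kidney, was 11.69 on the log2 scale (SE 2.85, 95% interval from 6.11 to 17.3), with an adjusted p of 0.0299 over 747 features (z of deposited values, Benjamini-Hochberg). The difference assumes that the numerator is the same genotype in both tables, which neither states. Its 3 positive-side liver libraries all lay above its 3 negative-side ones, but its deposited mean was only 12 in liver and 5.19 in kidney.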

How the results depend on the processing

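The count of called liver features was 2 in the deposited table and stayed at 2 when adjustment covered features whose mean was at least 10 or at least 1, or with a microRNA symbol, or at a threshold of 0.1, with Mir294 and Mir1958 called in each. Adjusting over all 877 statistics gave 3, with Mir6969 added. Refits on recovered reads with the dispersion held gave 2 with all libraries and from 0 to 0 when any 1 was left out, where 16 to 35 features had an unadjusted p under 0.05; fewer samples entered each. limma gave 0 calls, with 13 of 300 features at an unadjusted p under 0.05, and the cause was not tested. The median log2 fold change of all features was 0.07133 and that of features with a mean of 10 or more was 0.007405. The share of Mir122 was 26.4% and that of the liver and gut list 34.1% of the microRNA-symbol total. The kidney difference called 0 features with a mean of at least 10 in both organs, since Mir3474 was then not tested, and the heart difference called 0 in every setting run. The fold change of Mir466n was 5.005 without negative-side library 1 and -5.347 without positive-side library 3, against -1.52 with all 6. Leaving out 1 library moved the number of non-overlapping features from 12 to between 19 and 49 above and from 17 to between 24 and 41 below, where fewer libraries are compared. No paired analysis was possible because libraries could not be assigned to mice, so neither the sibships nor any other pairing of the genotypes could enter a fit. The planned count tests on recovered reads were not run, since the deposited values are means. Reads of 93 features, all with a mean of at least 4085.64, were not recovered, so their dependence on single libraries was not examined.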
